A study of Homo sapiens with 8 samples.

Results

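The 2 H3K9ac peak lists of a study with 8 samples are described here, 1 from untreated KGN cells and 1 from KGN cells given butyrate. The members were chosen by antibody and treatment as the labels give them: both libraries were made with an antibody to histone H3 acetylated at lysine 9 (H3K9ac). KGN is a human cell line established from an ovarian granulosa cell tumour. The control cells had no butyrate, and the treated cells had 1 mM butyrate for 6 h in the same medium. The other 6 samples are the same pair for H4K16ac, for nonspecific immunoglobulin (IgG) and for input chromatin. There was 1 library per condition and no replicate, so every difference below is a difference between 2 libraries. No test was possible and no p-value is given.

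Acetylation of lysine 9 neutralises a charge on the histone H3 tail and marks the nucleosomes that flank the start sites of active genes. It is placed largely by the acetyltransferases KAT2A and KAT2B and is removed by histone deacetylases. Butyrate, a short-chain fatty acid made by gut bacteria, inhibits class I and class IIa deacetylases, so acetyl groups are removed more slowly in its presence. In granulosa cells, which surround the oocyte, promoters such as those of FOXL2, the inhibin subunits and steroidogenic enzymes belong to the identity of the cell type.

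A peak is a stretch of sequence where more immunoprecipitated fragments piled up than in the local background. Its summit fold is the authors' ratio of the pileup at its highest point to that background, and its q value is the authors' p-value after correction for the many positions examined. Where a peak has several summits, the fold given is the highest of theirs, and the pileup and local background are those of the summit with the highest −log10 q. Coordinates are those of the deposited lists and match RefSeq gene positions of GRCh38. The depth recovered from these values was 24.3 M reads in control and 29.4 M with butyrate (M, 1000000). The highest pileup was 417 fragments in control and 115 with butyrate. Pileups and their counting intervals are given as counted, without scaling between libraries. The genome background was 2.09 fragments in control and 2.73 with butyrate, so equal pileups stand lower over it with butyrate. IgG gave 5 peaks in control and 2 with butyrate on the same chromosomes. Of these IgG peaks, 4 and 2 overlapped control H3K9ac peaks and 0 overlapped a butyrate H3K9ac peak.

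The granulosa label was checked against 25 marker genes. In control, 8 of them had a promoter peak: FOXL2, INHA, INHBB, CYP11A1, GATA6, KITLG, RUNX1 and ESR2. With butyrate 15 of them had one. Over all genes 54.7% had one in control and 63.9% with butyrate, so these counts do not set the granulosa markers above other genes. No promoter peak was listed in either library at AMH, FSHR, LHCGR, CYP19A1, STAR, NR5A1, NR5A2, WT1, GATA4 or RSPO1. The gonadotropin receptors, aromatase and anti-Müllerian hormone are in that group. Among markers of other cell types, the control library had promoter peaks at 3 of 10 theca and stroma genes, 1 of 12 blood genes, 0 of 9 endothelial genes, 3 of 10 epithelial genes, 2 of 10 oocyte genes and 2 of 15 neuron genes. With butyrate the same lists had 7, 3, 2, 5, 2 and 7. Within these lists PTPRC (blood), PECAM1 and VWF (endothelium), EPCAM and CDH1 (epithelium) and DDX4 (germ cells) had none in either library. Other members of the same lists gained one: CSF1R and LCK (blood), ERG and CLDN5 (endothelium), and CLDN4 and KRT19 (epithelium). Markers of several lineages thus gained the mark beside those of granulosa cells, and their part in the results below was not tested.

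The sequences of 6 promoters show what the DNA under these peaks looks like: 4 of gained promoters, 1 of a kept promoter and 1 of a lost one. They were chosen because the whole window of 300 bases, 250 before the gene start and 50 after it, lies under the H3K9ac peak. For GATA6, the kept promoter, this holds for the butyrate peak, and the control peak covered only the end of the window. The sequences are RefSeq's for GRCh38.p14, written 5′ to 3′ on the strand of the gene. Capitals mark GGGCGG, the core of an Sp1 site, in the first 3 and CCAAT, the box bound by NF-Y, in the others, on either strand (CCGCCC or ATTGG on the opposite one).

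TRABD2B: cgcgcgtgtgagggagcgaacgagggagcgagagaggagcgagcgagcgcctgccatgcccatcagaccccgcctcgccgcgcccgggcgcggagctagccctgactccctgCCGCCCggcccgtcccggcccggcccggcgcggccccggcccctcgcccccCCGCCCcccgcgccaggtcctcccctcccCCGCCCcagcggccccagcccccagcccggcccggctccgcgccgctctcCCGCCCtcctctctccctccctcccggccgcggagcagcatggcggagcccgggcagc
BMAL2: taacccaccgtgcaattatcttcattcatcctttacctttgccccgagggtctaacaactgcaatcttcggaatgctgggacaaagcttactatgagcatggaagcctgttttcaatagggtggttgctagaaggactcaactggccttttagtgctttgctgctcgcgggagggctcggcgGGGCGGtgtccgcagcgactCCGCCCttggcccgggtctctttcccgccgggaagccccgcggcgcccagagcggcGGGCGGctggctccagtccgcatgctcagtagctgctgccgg
NPAS2: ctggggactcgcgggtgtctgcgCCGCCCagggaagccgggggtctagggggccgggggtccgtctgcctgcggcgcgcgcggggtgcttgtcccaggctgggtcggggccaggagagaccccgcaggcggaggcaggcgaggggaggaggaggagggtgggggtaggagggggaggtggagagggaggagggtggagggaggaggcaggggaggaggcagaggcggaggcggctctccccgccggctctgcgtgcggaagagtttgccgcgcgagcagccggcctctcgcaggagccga
BMPR1B: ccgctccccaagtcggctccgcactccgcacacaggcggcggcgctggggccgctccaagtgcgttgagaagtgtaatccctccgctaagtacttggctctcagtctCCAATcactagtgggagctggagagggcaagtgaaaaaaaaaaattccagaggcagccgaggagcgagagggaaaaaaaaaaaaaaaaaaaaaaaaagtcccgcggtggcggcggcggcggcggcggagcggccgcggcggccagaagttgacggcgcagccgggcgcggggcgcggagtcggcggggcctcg
GATA6: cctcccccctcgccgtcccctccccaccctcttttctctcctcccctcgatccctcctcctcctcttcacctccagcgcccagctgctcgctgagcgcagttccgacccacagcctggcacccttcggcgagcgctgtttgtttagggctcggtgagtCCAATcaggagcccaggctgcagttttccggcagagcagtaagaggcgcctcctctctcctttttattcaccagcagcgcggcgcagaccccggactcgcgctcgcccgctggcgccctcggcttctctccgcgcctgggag
CENPU: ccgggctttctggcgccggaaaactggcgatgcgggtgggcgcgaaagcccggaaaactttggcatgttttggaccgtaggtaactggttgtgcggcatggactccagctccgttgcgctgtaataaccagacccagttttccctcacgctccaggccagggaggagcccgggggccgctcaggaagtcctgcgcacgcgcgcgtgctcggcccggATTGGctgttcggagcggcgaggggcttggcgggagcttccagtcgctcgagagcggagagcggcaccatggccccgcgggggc

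The windows of TRABD2B (chr1:47997336-47997635, minus strand), BMAL2 (chr12:27332586-27332885, plus strand) and NPAS2 (chr2:100819889-100820188, plus strand) hold 4, 3 and 1 copies of GGGCGG and 42, 22 and 28 CpG dinucleotides. Those of BMPR1B (chr4:94757705-94758004, plus strand), GATA6 (chr18:22169339-22169638, plus strand) and CENPU (chr4:184734047-184734346, minus strand) hold 1 CCAAT each and 34, 25 and 32 CpG. TRABD2B, BMAL2, NPAS2 and BMPR1B gained a promoter peak, GATA6 had one in both libraries and CENPU lost its peak. Gained promoters had fewer CpG than kept ones and more than promoters without a peak. The median count was 16 in 1351 gained promoters, 27 in 9079 kept ones and 7 in 5352 with no peak in either library, against 22 over all 15812 promoters. GGGCGG was present in 59.5% of gained, 72.8% of kept and 33.9% of unmarked promoters, and in 58.5% of all. CCAAT was present in 29.7%, 37.2% and 36.4% of these and in 36.3% of all, and in 14 of 30 lost promoters. TATAAA, the TATA box, was in 8.73%, 5.04% and 17.7%, against 9.64% of all. TGANTCA, the AP-1 site, was in 7.62%, 3.94% and 8.35%, against 5.76% of all, and CACGTG, the E-box of the clock factors, in 6.81%, 10.8% and 6.26%, against 8.87%. GGAATG, the TEAD site, was in 13.6% of gained and of unmarked promoters, 10.3% of kept ones and 11.7% of all. Each motif was counted on both strands and on its own, so motifs may overlap, and a match is not evidence of binding. Among genes without a control promoter peak, the share that gained one was 10.4% in the fifth of promoters with the fewest CpG and 37.1% in the fifth with the most. With equal numbers of top peaks these shares were 2.61% and 15.9%, so CpG-rich promoters gained the mark more often under both counts.

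Butyrate gave many more H3K9ac peaks, and most of the additional ones were weak and narrow. The control list held 22215 peaks over 20.3 Mb of sequence and the butyrate list 79356 peaks over 59.8 Mb. Of the control peaks, 20517 overlapped a butyrate peak by at least 1 bp and are called kept (92.4%), and 1698 did not and are called lost (7.64%). Of the butyrate peaks, 61089 overlapped no control peak and are called gained (77.0%). Gained peaks had a median width of 404 bp and a median summit fold of 3.22, against 1279 bp and 5.39 for the butyrate peaks that lay on a control peak. Several summits were listed in 14.4% of gained peaks and in 70.9% of those on a control peak. The gained peaks were therefore mostly single, low summits.

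The surplus of butyrate peaks depended on the strength asked for. Among peaks with a −log10 q of at least 5, control had 14629 and butyrate 27340, a ratio of 1.87. At 15 or more the lists were equal in number, with 4578 and 4594 peaks. At 20 or more the butyrate list was the smaller, with 1310 peaks against 1819, a ratio of 0.720. Only 18 gained peaks reached a −log10 q of 20. When the 22215 strongest peaks of each list were compared, 79.7% of the control peaks were kept, 7743 butyrate peaks were gained (34.9%) and 4501 control peaks were lost (20.3%).

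**Figure D1:**
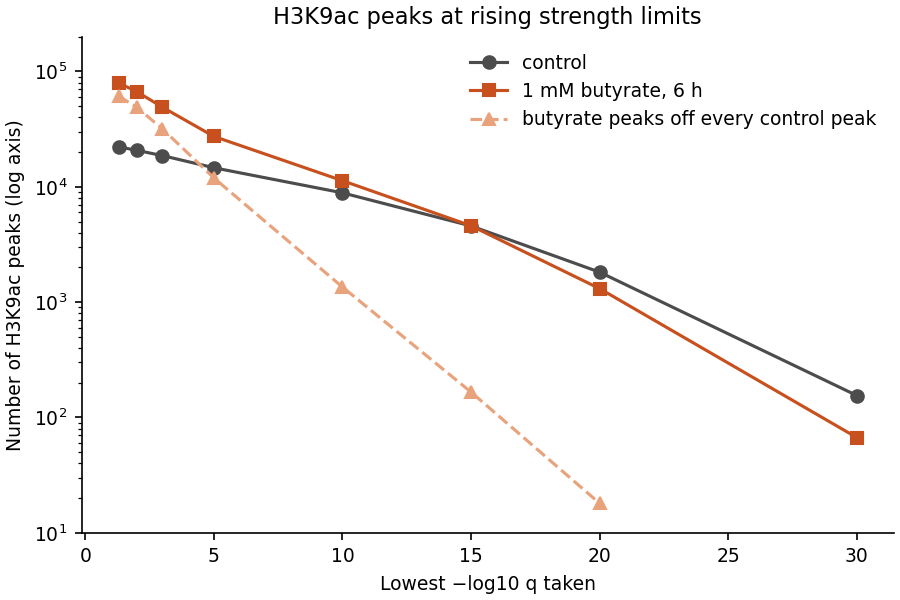
Number of H3K9ac peaks (log axis) with a −log10 q of at least the value on the horizontal axis, for control (circles), butyrate (squares) and butyrate peaks off every control peak (triangles). The control and butyrate lines meet at 15, with 4578 and 4594 peaks, and the gained peaks are down to 18 at 20.

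Gained peaks lay away from gene starts more often than the peaks shared by both lists. Only 11% lay within 1 kb of a start, 43.4% at 1 to 10 kb and 43.2% at 10 to 100 kb. By the authors' annotation, 32.5% of the gained peaks were in an intron other than the first and 39.9% outside genes. For butyrate peaks on a control peak these shares were 14.1% and 28.8%, while 38.4% were in the first intron against 19.2% of gained peaks. The median gained peak was 11.7 kb from the nearest control peak, 12% were within 1 kb of one and 18.5% were more than 50 kb away. Lost peaks were narrow, with a median width of 298 bp, and 72.4% of them had a butyrate peak within 1 kb. Most lost peaks were thus narrow peaks close to a butyrate peak.

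At gene level the promoters already marked in control stayed marked, and part of the others gained a peak. A gene was counted as marked if any peak came as near as 1 kb to its start. Control marked the promoters of 10733 of 19613 protein-coding genes (54.7%), and butyrate those of 12524 (63.9%). Both libraries had one at 10699 genes. A promoter peak was gained at 1825 of the 8880 genes without one in control (20.6%, exact 95% interval 19.7 to 21.4%, which covers counting of genes only). The 8880 include 1294 genes of unknown strand, which were kept only where no peak lay near and so could not gain one. Among the 7586 of known strand the share was 24.1%. A promoter peak was lost at 34 of 10733 genes (0.317%). With equal numbers of top peaks 640 genes gained one (7.21%) and 521 lost one (4.85%), and 487 of those 521 kept a peak in the full lists. No control peak lay in the gene or within 10 kb for 1063 of the 1825 gained genes. Gained promoter peaks were weaker than kept ones: in the butyrate library their median pileup was 17 fragments, their median −log10 q 4.45 and their median width 569 bp, against 30, 13.6 and 1669 bp at kept promoters. The same butyrate peak was the strongest promoter peak of another gene too at 110 of the gained genes, where the gain cannot be given to 1 gene. At 52 of them the butyrate peak also lay on a control peak outside the window, so that a marked region reached the start in place of a separate peak. Such peaks had a median width of 2294 bp, against 553 bp for the 1773 that lay off every control peak.

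The gained promoters with the highest −log10 q, among genes that also gained one with equal numbers of top peaks, are described next. They were chosen by the strength of their butyrate peak, so that strength is no result. Over all gained promoters the median butyrate fold was 3.72, against 6.17 at kept ones. The choice by equal numbers was passed by 49 of the 52 genes whose peak lay on a control peak and by 591 of the other 1773. TRABD2B, a membrane protease that cleaves and inactivates WNT ligands, had a butyrate peak of 1052 bp (chr1:47996942-47997993) with a pileup of 42 fragments (exact counting interval 30.3 to 56.8), a summit fold of 8.39 and a −log10 q of 23.4. ATN1, the transcriptional corepressor atrophin, had a pileup of 40 and a fold of 8.43 (chr12:6924323-6927966), with 9 control peaks in or within 10 kb of the gene. FGF11, an intracellular fibroblast growth factor homologue, had a pileup of 41 and a fold of 8.08 in a peak shared with TMEM102. The butyrate peak of TRABD2B lay off every control peak, whereas those of ATN1 and FGF11 overlapped a control peak more than 1 kb from the start. SYNGR3, a synaptic vesicle protein, had a fold of 8.19, EHD4, an ATPase of endocytic recycling, one of 8.69 and ESYT3, a tether between endoplasmic reticulum and plasma membrane, one of 7.04. ACER1, an alkaline ceramidase, had a fold of 7.03 in a peak shared with CLPP that overlapped a control peak, and ZBTB18, a zinc finger repressor of neuronal and muscle genes, one of 6.47. FOXH1, a forkhead partner of SMAD proteins, had the highest pileup of these 10 genes, 51, with a fold of 5.57. Its peak was shared with PPP1R16A and overlapped a control peak. LGALS9C, a galectin with near-identical copies, had a fold of 7.67 that may include reads of its copies.

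Granulosa identity genes are described next, since they are the genes by which the cells are named. A promoter peak was gained at 7 of the 17 members without one in control, against 20.6% of all genes without one. With equal numbers of top peaks 5 of the 17 gained one when peaks were ranked by −log10 q and 3 when ranked by fold, where WNT4 and SERPINE2 were not gained. The share of all genes was 7.21% with the first ranking. FST, follistatin, which binds and blocks activin, gained a peak of 873 bp (chr5:53479573-53480445) with a pileup of 26, a fold of 4.61 and a −log10 q of 8.8. WNT4, a ligand of ovarian development, gained one of 820 bp with a pileup of 23 and a fold of 4.11. BMPR1B, a BMP receptor of granulosa cells, gained one of 785 bp with a pileup of 17 and a fold of 4.83 (chr4:94757601-94758385). The 3 peaks stood alone, with no control peak in or within 10 kb of the gene. HSD17B1, the enzyme that converts oestrone to oestradiol, gained a wider peak of 3224 bp with a pileup of 25 and a fold of 5.33, which overlapped a control peak outside the window, and SERPINE2, a secreted protease inhibitor, one of 1276 bp with a fold of 3.95. AMHR2, the anti-Müllerian hormone receptor, and INHBA, the activin subunit, had weaker peaks with folds of 3.62 and 2.58 that were not among the top peaks. Of the other lineages, 4 of 7 theca and stroma genes (LUM, COL1A1, COL1A2 and INSL3) and 5 of 13 neuron genes gained a promoter peak, as did 2 of 11 blood, 2 of 9 endothelial, 2 of 7 epithelial and 0 of 8 oocyte genes. Among equal numbers of top peaks these counts were 0 for theca and stroma, 2 for neuron, 1 for blood, 0 for endothelial, 2 for epithelial and 0 for oocyte genes.

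The 8 granulosa genes marked in control kept their promoter peak, and most of those peaks were wider with butyrate. GATA6, a zinc finger factor of steroidogenic cells, had a peak of 915 bp in control (chr18:22169580-22170494) and of 4084 bp with butyrate (chr18:22168284-22172367). Its pileup was 22 fragments (exact interval 13.8 to 33.3) and 40 (28.6 to 54.5), and its fold 4.73 and 8.40. Control rows lay close together there, and with rows up to 500 bp apart joined the widths were 2680 and 4084 bp. CYP11A1, the side-chain cleavage enzyme that starts steroid synthesis, went from 1857 to 3571 bp with nearly equal pileups of 36 and 38, and its fold was 4.45 and 6.95. INHA, the inhibin alpha subunit, had an unscaled pileup of 26 in both libraries. Its peak, shared with OBSL1, was 942 bp wide in control and 2063 bp with butyrate. INHBB had widths of 1742 and 2800 bp, and FOXL2, the forkhead factor that maintains granulosa fate, 1985 and 2576 bp with folds of 5.77 and 5.74. KITLG, the ligand of the KIT receptor of the oocyte, had 1348 and 1569 bp, and ESR2, the oestrogen receptor beta, 386 and 650 bp at peaks that did not overlap. RUNX1 went the other way, with 6428 bp in control and 3653 bp with butyrate at a pileup of 30 in both. GATA6 and INHA were the 2 of these 8 genes at least 2 times as wide, against 25.2% of all kept promoters. With close rows joined these were INHA, INHBB (1742 and 6757 bp), CYP11A1 (1857 and 4238 bp) and KITLG (1348 and 2886 bp). RUNX1 then had 8029 and 8419 bp, and ESR2 was narrower with butyrate, with 2310 and 1288 bp. At GATA6, the gene with the largest difference in pileup, the counting intervals of both libraries overlapped.

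Genes reported elsewhere to respond to deacetylase inhibitors were mostly marked before treatment. Of 22 such genes, 16 had a promoter peak in both libraries, while 54.7% of all genes were marked in control. Of the other 6, 4 gained one, against 20.6% of all genes without one. With equal numbers of top peaks 2 of the 6 gained one, against 7.21%. CDKN1A, the cell cycle inhibitor p21, had widths of 2402 and 3637 bp, pileups of 32 and 37 and folds of 4.32 and 6.49. GADD45A, a stress response gene, had pileups of 40 and 43 and folds of 6.00 and 10.0. KLF2, a zinc finger factor, had a peak of 463 bp in control and 1326 bp with butyrate, with folds of 3.95 and 6.76. TXNIP, a thioredoxin inhibitor, had widths of 422 and 1118 bp (2965 and 4947 bp with close rows joined), but its fold was lower, 7.20 in control and 4.89 with butyrate. KLF6 had a lower pileup with butyrate, 26 against 43. The list thus held promoters with higher folds and promoters with lower ones: 3 of the 16 were at least 1.5 times up (7.36% of all kept promoters) and 0 at least 1.5 times down (12.7%), and 6 were at least 2 times as wide (25.2%). MT1E, a metallothionein with close copies, was reached by a peak with a fold of 5.65 that overlapped a control peak, and CLU, the chaperone clusterin, gained one with a fold of 5.90. SYT11 and ALPG gained weaker ones, and DHRS2 and STC1 had none in either library.

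Clock genes gained promoter peaks at 6 of the 9 members that lacked one in control, and 4 of the 6 were also gained with equal numbers of top peaks. Over all genes these shares were 20.6% and 7.21%. NPAS2 and BMAL2, paralogues of the clock activators CLOCK and BMAL1, had butyrate peaks of 2917 and 1668 bp. Their pileups were 38 and 34 fragments, and their folds 6.15 and 7.54. PER1, a repressor of those activators, gained a peak of 1555 bp with a fold of 5.99, and BHLHE41, a repressor that binds the same E-box, one of 997 bp with a fold of 4.58. HLF and BMAL1 gained weak peaks with folds of 3.87 and 2.93. Among clock genes marked in both libraries, NR1D2, a nuclear receptor that represses BMAL1, had pileups of 20 and 38 and folds of 5.67 and 10.5. CRY2, a repressor of the clock, had folds of 4.05 and 6.76. NR1D1 and TEF had lower folds with butyrate, 8.09 and 4.81 for NR1D1 and 7.77 and 5.21 for TEF. Their peaks were nevertheless wider with rows up to 500 bp apart joined, 1250 and 5324 bp at NR1D1 and 285 and 2520 bp at TEF. The local backgrounds at TEF were 2.47 and 5.34.

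Genes of fatty acid use had gained peaks, and genes of insulin signalling had wider ones. In the PPAR and fatty acid list 7 of 14 members without a control promoter peak gained one, against 20.6% of all genes without one. With equal numbers of top peaks 3 of the 14 gained one, against 7.21%. Of 19 kept peaks 3 were at least 2 times as wide, against 25.2% of all kept promoters. PLIN4, a lipid droplet coat protein, had a butyrate fold of 6.67, PPARGC1A, the coactivator of mitochondrial biogenesis, one of 5.63 and ANGPTL4, a lipase inhibitor, one of 5.36. PPARG itself had pileups of 16 and 31 and folds of 4.84 and 8.18 at peaks of 519 and 968 bp (926 and 968 bp with close rows joined). In the insulin and IGF list 20 genes were marked in both libraries, and 12 of these peaks were at least 2 times as wide (25.2% of all). IRS1, the insulin receptor substrate, had pileups of 14 and 32 and folds of 4.27 and 8.46. It shares its butyrate peak with RHBDD1, but the control peaks of these genes differ. With close rows joined the widths were 578 and 1097 bp at IRS1 and 2038 and 1097 bp at RHBDD1. The direction of the width difference thus depends on which gene is taken. IGFBP1, an IGF binding protein, had widths of 321 and 1521 bp and folds of 3.33 and 7.66. FOXO1, the forkhead factor restrained by insulin, had widths of 463 and 4041 bp at folds of 6.47 and 6.92, and GRB10, an adaptor that inhibits insulin receptor signalling, 322 and 2123 bp. At FOXO1 and GRB10 the difference was in width, with nearly equal folds. With close rows joined it was 895 and 4041 bp at FOXO1 and 1144 and 2123 bp at GRB10. Counting intervals of the control and butyrate pileups overlapped for IRS1 (7.65 to 23.5 and 21.9 to 45.2) and for PPARG (9.15 to 26.0 and 21.1 to 44.0).

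In the TGF-beta and BMP list 5 of 11 members without a control promoter peak gained one, against 20.6% of all genes without one. These were GDF11 and the granulosa genes FST, BMPR1B, AMHR2 and INHBA. With equal numbers of top peaks 3 of the 11 gained one, against 7.21%. GDF11, a ligand of activin receptors, had a butyrate pileup of 32 and a fold of 6.73. The activin receptor ACVR1 was marked in both libraries, with widths of 391 and 2581 bp (1650 and 2581 bp with close rows joined) and folds of 4.45 and 7.82. Of the immediate early list, BATF3 gained a peak with a pileup of 43 and a fold of 5.16, and EGR2 one with a pileup of 24 and a fold of 5.69. PTGS2 and PTGES, enzymes of prostaglandin E synthesis needed for ovulation, had peaks in both libraries. PTGS2 went from 266 to 671 bp with folds of 3.08 and 5.14, and PTGES from 746 to 5232 bp with folds of 4.43 and 7.03. IL1B, an inflammatory cytokine, gained a peak of 367 bp with a pileup of 26. The enzymes that butyrate acts on and their counterparts were nearly all marked before treatment: 36 of 39 deacetylases, acetyltransferases and readers had a promoter peak in control, against 54.7% of all genes. Of those 36 peaks, 14 were at least 2 times as wide, against 25.2% of all kept promoters. KAT2B, which acetylates this lysine, had widths of 302 and 2414 bp and folds of 4.0 and 7.78. CREBBP, an acetyltransferase of other histone sites, had a lower fold with butyrate, 5.29 against 12.5, over local backgrounds of 5.80 and 2.61. RCOR2, a corepressor that binds deacetylases, gained a peak with a fold of 6.78, and HDAC9 gained a weak one with a fold of 3.22.

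In larger gene families the share of unmarked promoters that gained a peak is given beside that over all genes, 20.6%. That share was 24.1% over genes of known strand. Family members of unknown strand stayed in only where no peak lay near, so they could not gain one. Their number per family was not counted, so low counts below may be partly fixed by this. Heat shock proteins and DNAJ chaperones gained one at 8 of 16 genes, led by DNAJB5 with a fold of 7.70. Ephrins and Eph receptors did so at 6 of 13 genes, collagens at 12 of 31, led by COL6A1 with a fold of 5.95, and calcium and sodium channel subunits at 11 of 33, led by SCN3B with a fold of 5.75. Solute carriers, with 41 of 195, and potassium channel subunits, with 17 of 85, were near the share of all genes. Few members gained a peak in the following families: 4 of 390 olfactory receptors, 1 of 94 keratin-associated proteins, 2 of 46 keratins, 0 of 53 clustered protocadherins, 0 of 29 taste and vomeronasal receptors and 0 of 25 MAGE antigens gained a promoter peak. Nuclear receptors without a control peak, among them PGR and ESR1, gained none at 20 genes. With equal numbers of top peaks the heat shock, ephrin and collagen families gained 4, 2 and 4 genes, calcium and sodium channels 4 and potassium channels 7, against 7.21% of all genes. Small families have wide intervals, and no list was tested against other genes.

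**Figure D2:**
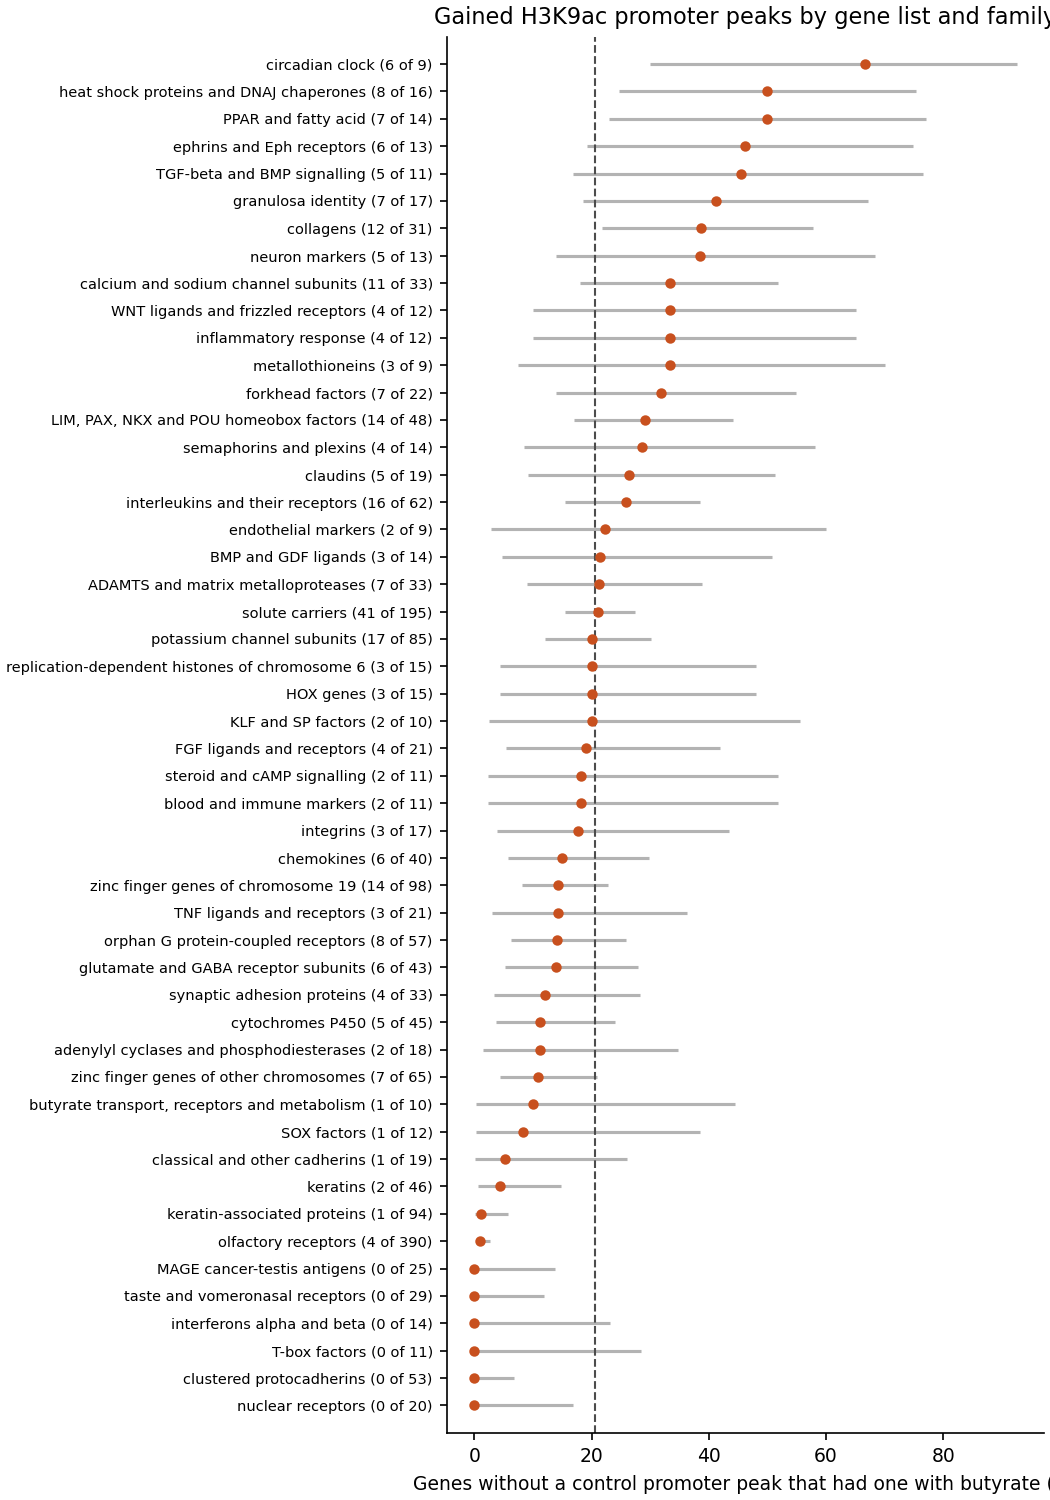
Share of genes without a control promoter peak that had one with butyrate, for each gene list and family with at least 9 such genes (points, with exact 95% intervals that cover counting only). The dashed line is the share over all genes, 20.6% (24.1% over genes of known strand). Members of unknown strand are included and could not gain a peak. Circadian clock genes stand at 6 of 9 and nuclear receptors at 0 of 20.

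Promoters marked in both libraries had wider peaks with butyrate, and their summits were not higher. Over 10699 genes the median ratio of butyrate to control width was 1.35, and 2697 peaks were at least 2 times as wide (25.2%). The median ratio of summit fold was 0.937, with 787 genes at least 1.5 times up (7.36%) and 1359 at least 1.5 times down (12.7%). Local background was higher with butyrate by a median ratio of 1.24. A second measure, the pileup over each library's genome background, was added after seeing the data, and its median ratio was 0.828. On that scale 314 genes were at least 1.5 times up (2.93%) and 2039 at least 1.5 times down (19.1%). The fold ratio moved with the strength of the control peak. When the genes were split into 4 groups of equal size by control pileup, it was 1.14 in the lowest group and 0.829 in the highest. The width ratio was 1.63 and 1.26 in these groups. When the genes were ordered by their butyrate pileup instead, the fold ratio was 0.872 in the lowest group and 0.977 in the highest, so this order depends on which library sorts the genes.

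The widening reached both sides of the gene start. Over 4225 genes whose start lay under a peak in both libraries, the peak reached a median of 375 bp upstream in control and 627 bp with butyrate, and 1038 and 1300 bp downstream. Gene by gene, the median shift was smaller, 97 bp upstream and 207 bp downstream. The butyrate edge was farther out at 70.6% of starts upstream and at 69.7% downstream. Across 9079 kept promoters, 24.7% had a control peak at 1 kb upstream of the start and 40.3% a butyrate peak. At 2 kb inside the gene these shares were 15.8% and 33.6%, and at 250 bp inside it 86.4% and 91.9%. The position with the highest share was thus the same in both libraries. The shares differed more at 1 kb upstream and at 2 kb inside than at that position. At the start itself they were 54.8% in control and 66.1% with butyrate.

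**Figure D3:**
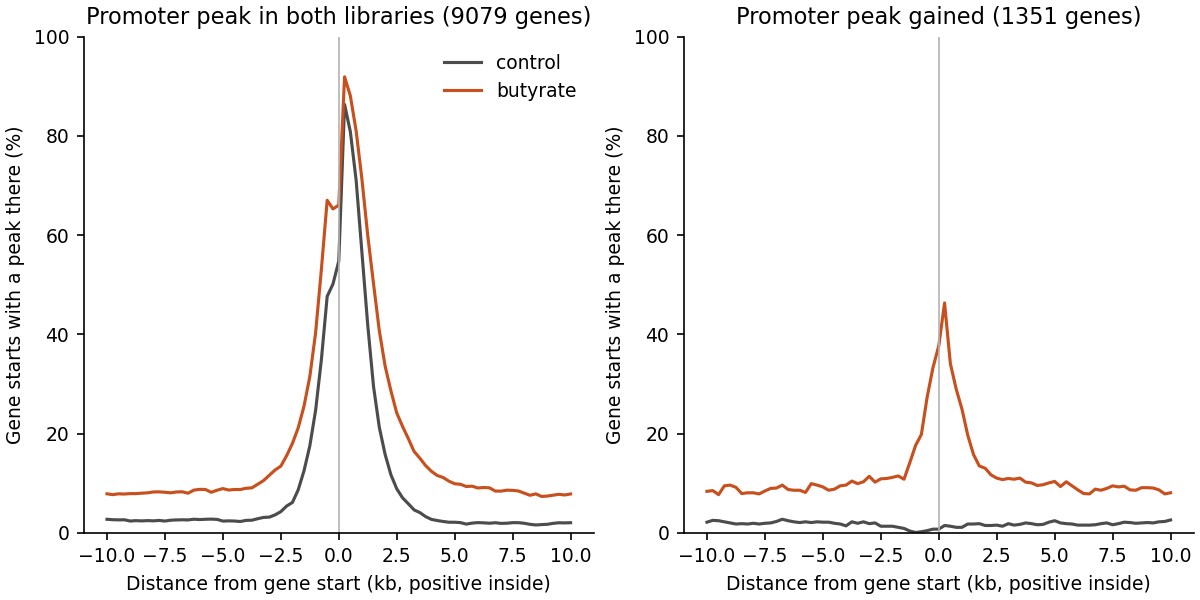
Share of gene starts with an H3K9ac peak at each distance from the start (kb, positive inside the gene), for 9079 genes with a promoter peak in both libraries (left) and 1351 genes that gained one (right), in control and with butyrate. At kept promoters the share at 1 kb upstream is 24.7% in control and 40.3% with butyrate, and at gained promoters the butyrate share is highest at 250 bp inside the gene, 46.3%.

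Single promoters show the range of widths, among genes with a control −log10 q of at least 20. MEF2D, a MADS-box transcription factor, had a peak of 483 bp in control (chr1:156500948-156501430) and of 6484 bp with butyrate (chr1:156495607-156502090), with pileups of 42 and 49 and folds of 8.50 and 8.57. KCNK1, a potassium leak channel, had widths of 408 and 2633 bp, and MEX3C, an RNA-binding ubiquitin ligase, 362 and 2284 bp. With rows up to 500 bp apart joined, the widths were 3278 and 10354 bp at MEF2D, 2279 and 3860 bp at KCNK1, and 2363 and 2284 bp at MEX3C. The difference in width thus remained at MEF2D, whose summit folds were nearly equal. At MEX3C the control mark was as broad but listed in pieces. WRNIP1, an ATPase that binds the WRN helicase, had widths of 514 and 3738 bp and HSPA1B, a heat shock protein with a near-identical copy, 341 and 2980 bp, but the strongest peaks of these genes did not overlap between libraries. With close rows joined the widths were 3710 and 4680 bp at WRNIP1 and 341 and 3790 bp at HSPA1B.

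At the promoters with the most extreme ratios of summit fold, the local background differed between libraries. MYNN, a zinc finger protein, had folds of 7.83 in control and 11.8 with butyrate, although its pileup was 59 in control and 43 with butyrate, since its local background was 6.66 and 2.73. CNOT1, the scaffold of the CCR4-NOT deadenylase, had folds of 8.51 and 11.6 at pileups of 47 and 50, and MCFD2, a cargo receptor subunit that shares its peak with TTC7A, folds of 8.02 and 10.9 at pileups of 38 and 45. PRP4K, a splicing kinase, had folds of 5.79 and 8.57. These 4 genes show that a higher fold was not a higher pileup in every case. SUMF1, which activates sulfatases, had folds of 12 and 2.86 at pileups of 45 and 24 and local backgrounds of 2.84 and 7.73. INTS2, an Integrator subunit, had folds of 12.9 and 3.73 at pileups of 39 and 28, and GNL3L, a nucleolar GTPase, 11.3 and 3.35. LOC128092249 had folds of 13.0 and 4.27. These genes were taken from the 1878 kept promoters with a control −log10 q of at least 20, a choice by 1 library, so the number of higher and lower folds among them is no result.

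Housekeeping families had widths close to control and lower folds, while several families of signalling and development had wider peaks. The 77 cytosolic ribosomal protein genes had a median width ratio of 1.17 and a median fold ratio of 0.76, and 22 of them were at least 1.5 times down and 1 up. The 73 mitochondrial ribosomal protein genes had ratios of 1.11 and 0.79, the 36 complex I subunits 0.97 and 0.80, and the 45 proteasome subunits 1.07 and 0.86. Replication-dependent histone genes on chromosome 6, which have near-identical copies, had ratios of 0.96 and 0.79 over 39 genes. In contrast, the 17 WNT ligands and frizzled receptors had a width ratio of 2.36 and a fold ratio of 1.39, with 12 at least 2 times as wide, 5 at least 1.5 times up and 0 down. The 15 semaphorins and plexins had ratios of 2.06 and 1.19, the 9 ephrins and Eph receptors 2.29 and 1.10, and the 9 potassium channel subunits 2.42 and 1.35. DUSP phosphatases, which switch off MAP kinases, had wider peaks at lower folds, with ratios of 2.08 and 0.89 over 18 genes. Families also differed in control strength, with which the ratios moved, and the part of that in these medians was not tested.

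**Figure D4:**
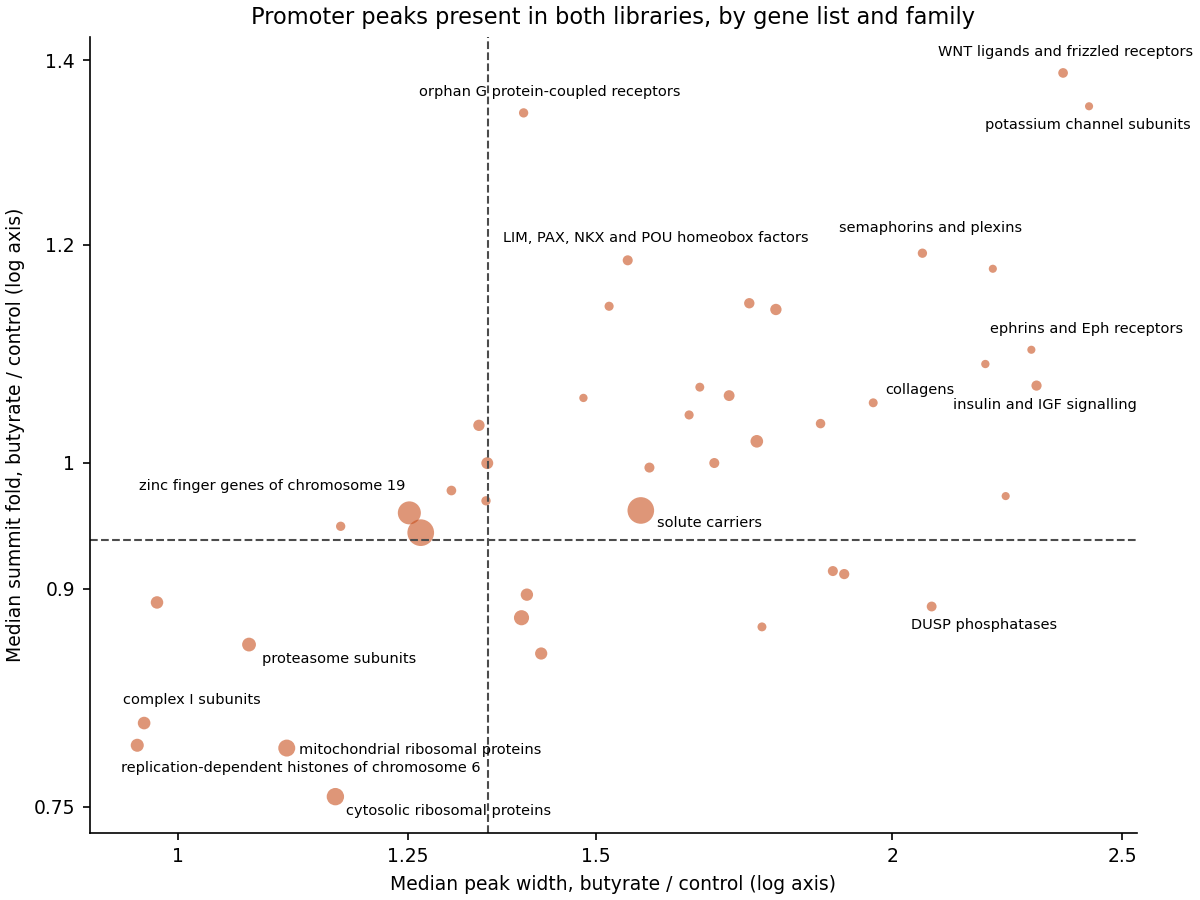
Median ratio of promoter peak width (horizontal, log axis) and of summit fold (vertical, log axis), butyrate over control, for each list and family with at least 9 genes marked in both libraries. Circle area grows with the number of genes, and the dashed lines are the medians over 10699 genes, 1.35 and 0.937. Ribosomal protein genes lie at the lower left and WNT ligands and frizzled receptors at the upper right.

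Gene bodies, counted from 1 kb past the start, carried about 4-fold as much sequence under peaks. Over 10310 genes of at least 20 kb, 0.518% of the bodies lay under control peaks and 2.13% under butyrate peaks, a ratio of 4.12. The ratio was 1.87 with equal numbers of top peaks and 2.73 with a −log10 q of at least 5. At least 10% of the body was covered in 124 genes in control and in 1244 with butyrate. The ratio was 3.76 in genes with a kept promoter peak, where 0.824% and 3.10% of the bodies were covered. It was 9.94 in genes with a gained one, where 0.223% and 2.22% were covered. Genes with no promoter peak in either library had a ratio of 5.49, and the 24 with a lost one 4.70. Gained genes were defined by a control peak missing near the start, so their higher ratio is no separate result. Ratios by gene length lay between 3.86 and 4.64, so the ratio differed little between short and long genes. The covered share itself fell with length. It was 1.60% in control and 6.17% with butyrate in genes of 20 to 50 kb, and 0.0683% and 0.296% in genes of 500 to 3000 kb. GSE1, a subunit of a deacetylase corepressor complex, had the most gained peaks of any gene, 98 over 507 kb (chr16:85169512-85676200), and its covered share was 2.97% and 17.6%. CUX1, a homeobox factor, had 74 gained peaks, CAMTA1, a calmodulin-binding factor, 65, RAP1GAP2, which turns off the GTPase RAP1, 64, and BCAR3, an adaptor of integrin signalling, 61.

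In some genes most of the body lay under peaks with butyrate. The covered share of CSNK1E, the casein kinase that phosphorylates PER proteins, was 21.65% in control and 78.15% with butyrate (gene at chr22:38290691-38318084). TNS4, a tensin of focal adhesions, had 10.6% and 75.3%, CAVIN1, a coat protein of caveolae, 10.1% and 71.4%, GPRC5A, a receptor induced by retinoic acid, 16.1% and 75.8%, and RIPOR1, a regulator of cell polarity, 16.0% and 73.8%. The following were named after their values were seen. FOSL2, an AP-1 subunit, had 24.5% and 81.0%, and NR4A1, an orphan nuclear receptor induced by gonadotropins, 9.58% and 62.0%. The SMAD genes of TGF-beta signalling were covered in the same order in both libraries: 8.53% and 56.7% for SMAD7, 3.90% and 41.1% for SMAD6, and 1.61% and 22.2% for SMAD3. With equal numbers of top peaks SMAD7 was covered less with butyrate, by 2.73 percentage points, while SMAD6 and SMAD3 were covered more, by 11.3 and 8.98 points. HDAC5 and HDAC11, deacetylases themselves, had 0% in control and 38.4% and 36.9% with butyrate. RXRA, a partner of many nuclear receptors, had 2.07% and 31.3%. The rises were smaller with equal numbers of top peaks: 15.8 points at HDAC5, 16.3 at HDAC11, 7.70 at RXRA and 23.9 at NR4A1. They were then 52.6 points at FOSL2 and between 33.3 (RIPOR1) and 49.6 (TNS4) at the 5 genes with the largest rise.

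**Figure D5:**
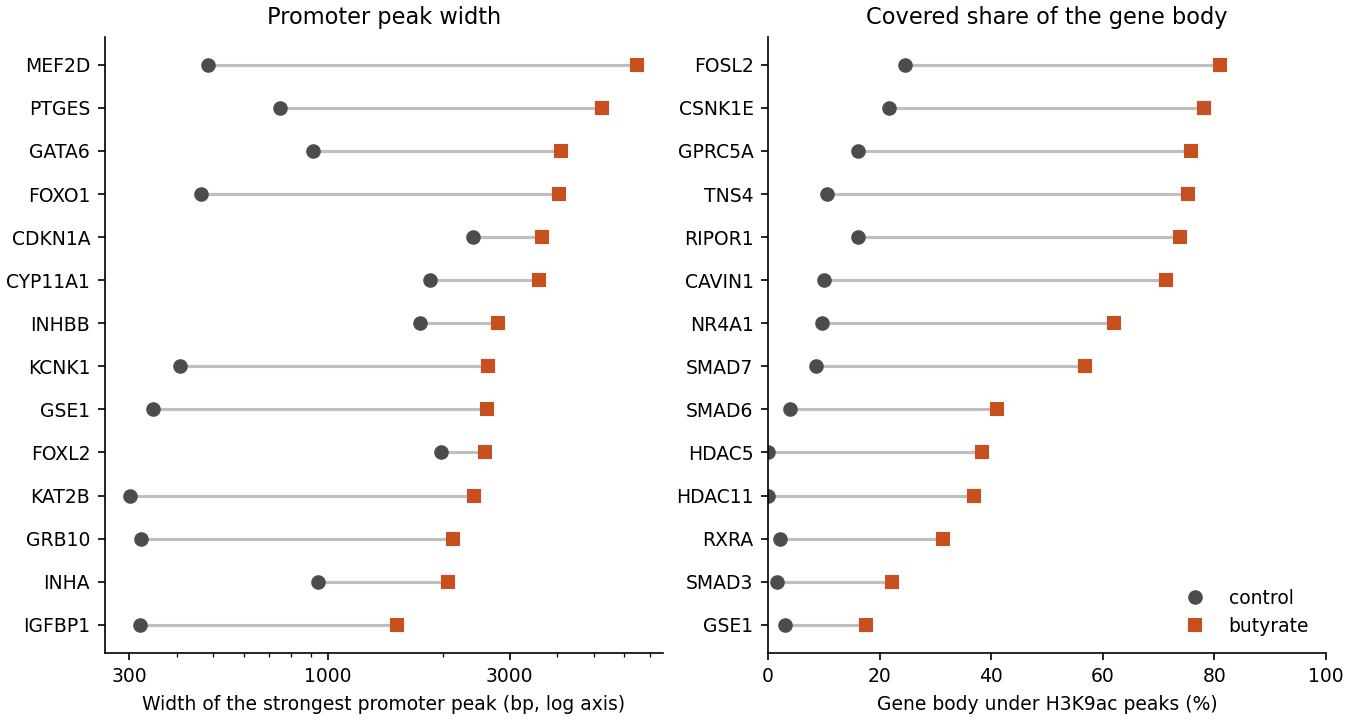
Width of the strongest promoter peak (left, bp, log axis) and share of the gene body under H3K9ac peaks (right, %) for named genes, in control (circles) and with butyrate (squares). MEF2D goes from 483 to 6484 bp, and FOSL2 from 24.5 to 81.0% of its body.

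Few genes lost their promoter peak, and the lost peaks were small. Their median width was 353 bp and their median −log10 q 3.92. The strongest among genes with no butyrate peak within 10 kb was CENPU, a centromere protein, with a control peak of 747 bp (chr4:184733634-184734380), a pileup of 19 and a fold of 6.47. NEIL3, a DNA glycosylase, had a control pileup of 17 and a fold of 5.82, NXF3, a relative of the mRNA export receptor, 16 and 5.50, ZNF724, a zinc finger gene with close relatives, 13 and 4.53, and DET1, a ubiquitin ligase adaptor, 14 and 4.22. The 5 control pileups lay between 13 and 19 fragments, below the median of 28 at kept promoters. Of the 34 lost genes, 8 lay on chromosome 4, among them CENPU and NEIL3, while 347 of the 10699 kept promoters lay there. Chromosome 4 had the smallest ratio of butyrate to control peaks, 1.83, and the largest share of lost peaks, 12.2%. Its kept promoters had median pileups of 20 in control and 21 with butyrate, against 31 and 32 on chromosome 1, and their width ratio was 1.09 against 1.36 on chromosome 1. These traits were not particular to chromosome 4. Chromosomes 14 and 13 had peak ratios of 2.06 and 2.18 and lost 11.2% and 10.6% of their peaks, with 2 and 0 lost genes. The kept promoters of chromosome 14 had median pileups of 20 and 22 and a width ratio of 1.15. The part of these chromosome-wide values in the lost genes was not tested.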

How the data were processed

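H3K9ac was measured by chromatin immunoprecipitation and sequencing in 2 libraries of KGN cells, and IgG in 2 more. Per the submitters' processing notes the tools were CASAVA 1.7 and MACS2 2.1.0 and the build hg19 (GRCh37). The sources used here name no aligner and no handling of duplicates. The deposited gene starts lay a median of 64 bp from RefSeq starts of GRCh38.p14, and 98.9% of 10411 genes lay within 100 kb, so positions were read as GRCh38. Starts are printed with 1 added. Each list is 1 library's MACS2 narrow peaks, per the file headers. The fold, a ratio, is the deposited summit pileup over local background, and the p-values and q-values are deposited by the authors as −log10. The deposited score, 10 times −log10 q, was not used for any result. Pileup and local background were recovered here from fold and −log10 p, with an error under 0.0001 in −log10 p, and implied depths of 24.3 and 29.4 M reads (M, 1000000) for an effective genome of 2700000000 bases.

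Rows that shared bases were merged on chromosomes 1 to 22 and X (Python 3.11.15, pandas 2.3.3, numpy 2.4.6, scipy 1.17.1). Of 19974 protein-coding RefSeq genes, 361 without a strand but with a nearby peak were left out. Another 1294 without a strand had no peak within 2.5 kb and count as unmarked. A peak missing from a list did not pass the authors' limit and may still hold signal. The input and H4K16ac libraries were not analysed here. Scripts were tested on simulated data. Exact (Clopper-Pearson or Poisson) 95% intervals cover counting only. Fragments without molecular identifiers are not independent molecules.

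The members, 20 gene lists and 49 families were chosen with earlier results of these data known. Genes were named by rule: members of the granulosa and responder lists, up to 3 gained and 2 lost genes with the highest −log10 q per list, and the 10 gained and 5 lost genes with the highest −log10 q overall. The rule further took, for control −log10 q of at least 20, the 5 largest changes of fold and of width, and the 5 genes with the most gained peaks or the largest rise of the covered share. Kept genes of the other lists and further gained members of a list were named after their values were seen; a few chosen by the rule are left out of the text and not reported here. Alternatives were equal numbers of top peaks, stricter limits, other overlaps, windows, starts and peak choices. Those added after seeing the data are every RefSeq start, overlapping strongest peaks alone, bases under any peak, and pileup over genome background.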

Additional observations from a re-analysis of the deposited data

How the results depend on the processing

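Counts of gained peaks and genes depended on how many peaks were taken, while the wider promoter peaks and the fuller gene bodies kept their direction under each alternative run. Gained peaks, 61089 as deposited, were 7743 and 8137 with equal numbers of top peaks by −log10 q and by fold, 5393 with a fold of at least 5 and 14382 with a −log10 q of at least 5. Lost peaks, 1698 as deposited, were 4501 and 4909 with equal numbers, 895 with the −log10 q limit and 1090 with rows up to 500 bp apart merged. Genes that gained a promoter peak, 1825, were 640 and 642 with equal numbers, and lost genes, 34, were 521 and 639, then 1275 and 195 with the fold and −log10 q limits. Over the genes of all lists and families, 287 gained and 7 lost a peak. With equal numbers 114 and 116 gained and 94 and 112 lost one, and 174 and 41 lost one with the fold and −log10 q limits. The width ratio of kept promoters, 1.35, was 1.46 with the wider merge and 1.39 over all bases within 2.5 kb of the start. The fold ratio, 0.937, was 0.947 with equal numbers and 0.828 as pileup over genome background. The downstream shift of the peak edge, 207 bp, was 244.5 bp at starts with no other start within 5 kb. The ratio of covered gene bodies, 4.12, was 1.87 with equal numbers and 2.73 with the −log10 q limit. The causes of these shifts were not tested. Of 51 gained genes named, 39 and 38 were still gained with equal numbers of top peaks, 33 with the fold limit, 40 with the −log10 q limit, 47 and 40 with windows of 500 bp and 2.5 kb, 43 with the authors' start alone and 51 with the same limit on −log10 p. The 7 lost genes named stayed lost with equal numbers, while 4 did with the fold limit, 4 with the −log10 q limit and 6 with the window of 500 bp. Joining rows up to 500 bp apart changed whether a promoter peak was at least 2 times as wide at 19 of the kept genes named and not at 47, as peaks of either library then joined. The covered share of SMAD7 reversed with equal numbers, with a butyrate minus control difference of -2.73 percentage points. No paired analysis was possible because each condition had 1 library, which also prevented leaving one out. A single pair of libraries cannot separate butyrate from differences in depth, antibody pull-down or culture.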

Other observations

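Cytokine, chemokine and drug metabolism genes are not covered above. Interleukins and their receptors gained a promoter peak at 16 of 62 genes without one in control, and at 4 of 62 with equal numbers of top peaks, near the 20.6% and 7.21% of all genes. IL22RA1, a receptor subunit of epithelial cells, had a butyrate pileup of 24 and a fold of 6.02. Of the chemokines 6 of 40 gained one, of the alpha and beta interferons 0 of 14, and of the integrins 3 of 17, led by ITGB2, the leukocyte integrin chain, with a pileup of 32 and a fold of 7.51. CYP1A1, the cytochrome induced by aryl hydrocarbons, led 5 gained of 45 cytochromes P450, with a pileup of 32 and a fold of 5.02. SLC12A3, the salt cotransporter of the kidney tubule, led the solute carriers with a pileup of 31 and a fold of 6.40. SLC16A7, a monocarboxylate transporter that carries butyrate-like acids, gained a peak of 2134 bp with a fold of 3.26, the 1 gain among 10 unmarked genes of butyrate transport, receptors and metabolism.

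Homeobox and zinc finger factors are given beside the 20.6% of all genes that gained a peak. LIM, PAX, NKX and POU homeobox factors gained a promoter peak at 14 of 48 genes, led by NKX2-1, a factor of lung and thyroid, with a pileup of 22 and a fold of 6.17. HOX genes did so at 3 of 15, led by HOXD13, a factor of distal limb and genital development, with a pileup of 33 and a fold of 7.11. Zinc finger genes of chromosome 19 gained one at 14 of 98 genes. They lost one at 3 of 146 (0.317% of all genes marked in control), ZNF225, ZNF724 and ZNF492. With equal numbers of top peaks 3 of the 98 gained and 36 of the 146 lost one, against 7.21% and 4.85% of all genes. Zinc finger genes of other chromosomes gained one at 7 of 65 genes and lost 0 of 195. With equal numbers of top peaks 3 of these 65 gained and 11 of the 195 lost one. Chromosome 19 had the highest density of gained peaks, 81.1 per Mb, and chromosome 4 the lowest, 3.21. Chromosome 22 had 5.27-fold as many butyrate as control peaks, and with equal numbers of top peaks the ratio was 1.26 there and 0.659 on chromosome 4.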
